A study of Mus musculus with 4 samples.

Results

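The genes of cholesterol synthesis, uptake, intracellular transport and efflux were examined in the gonadal white adipose tissue (WAT) of mice lacking FSP27 and of wild-type mice. FSP27, encoded by Cidec, is a protein of the lipid droplet surface of fat cells. The 31 genes were taken by symbol: 18 of cholesterol synthesis, 4 of sterol sensing and 9 of uptake, storage, transport and efflux. Of these, 28 were found among the 12394 genes to which the platform's annotation gives a probe set with 1 gene symbol, and Acat2, Insig1 and Soat1 are unnamed here. All mice were males of the C57BL/6J strain, 3 months old, on normal chow, and either carried the Fsp27 knockout or were wild-type. RNA from the fat of 5 mice of each genotype was pooled, and each pool was run on a duplicate pair of Affymetrix arrays, 4 in all. The p-values below therefore measure the spread between arrays of a pool and not the spread between mice, and the number of arrays limits the precision.

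Signals are intensities on a linear scale from the Affymetrix GeneChip Operating Software (GCOS), and each gene was read from its probe set with the highest mean signal. Median signals over all probe sets were 181.1 and 164.8 in FSP27-deficient WAT and 192.8 and 172.4 in wild-type WAT. Changes are given as the log2 difference, FSP27-deficient minus wild-type, of the signal plus 16, a scale that understates what genes with low signals do. The test was limma, with Benjamini-Hochberg adjustment over the 8523 genes whose signal averaged at least 100, and a gene was called at an adjusted p under 0.05. All 28 named genes passed that filter. Cidec itself gave 8564 and 8949 in FSP27-deficient WAT against 20491 and 18255 in wild-type WAT. The sources used here do not say whether its probe set lies within the deletion, so its level does not check the genotype of the pools.

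A cell builds cholesterol from acetyl-CoA by way of mevalonate, the isoprenoid pyrophosphates, squalene and lanosterol. When sterols are scarce in the membrane of the endoplasmic reticulum, SCAP escorts the SREBP transcription factors to the Golgi, where they are cut and released to activate the genes of this pathway, and INSIG proteins hold SCAP back when sterols are plentiful. Fat cells make little cholesterol compared with liver but store a large amount of it, much of it unesterified and at the droplet surface, and exchange it with lipoproteins.

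Hmgcs1, which encodes the cytosolic synthase that makes HMG-CoA at the start of the pathway, and Nsdhl, a dehydrogenase that helps to remove the methyl groups of lanosterol, rose in FSP27-deficient WAT. Cyp27a1, a mitochondrial hydroxylase that converts cholesterol to an oxysterol and to bile acid precursors, fell. No other gene among the 28 was called. These 2 higher and 1 lower genes stand beside 5.78% of all genes tested called higher and 6.51% called lower, or 12.3% in either direction. The count of called members, 3 of 28 (10.7%), was thus close to that of all genes. Without FSP27-deficient replicate 2, Lss and Pmvk were called too, 5 members in all, and without wild-type replicate 1 Nsdhl was not. When limma was run without a trend of the spread on the signal, no member was called, with adjusted p = 0.055 for Hmgcs1, 0.065 for Cyp27a1 and 0.099 for Nsdhl. The synthesis genes had a median log2 difference of 0.37 and those of uptake, transport and efflux a median of -0.13, against -0.08 over all genes tested.

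The sequences just before the annotated starts of the 3 called genes are shown because SREBP acts at short elements there, together with factors bound to CCAAT and GC boxes. They are RefSeq sequences of build GRCm38.p6, from the plus strand, which is the coding strand of all 3 genes, and capitals mark the letters of a sterol regulatory element (TCACNCCAC), a CCAAT box (CCAAT, or ATTGG on the opposite strand) or a GC box (GGGCGG, or CCGCCC on the opposite strand). The first runs from 250 bases upstream of the start of Hmgcs1 to the base before it, and the others from 120 bases upstream.
Hmgcs1, chr13:119690101-119690350: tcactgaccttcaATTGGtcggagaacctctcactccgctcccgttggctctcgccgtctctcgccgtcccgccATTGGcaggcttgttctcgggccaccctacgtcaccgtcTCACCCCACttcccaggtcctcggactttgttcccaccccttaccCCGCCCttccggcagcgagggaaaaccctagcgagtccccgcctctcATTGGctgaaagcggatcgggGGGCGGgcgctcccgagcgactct
Nsdhl, chrX:72918401-72918520: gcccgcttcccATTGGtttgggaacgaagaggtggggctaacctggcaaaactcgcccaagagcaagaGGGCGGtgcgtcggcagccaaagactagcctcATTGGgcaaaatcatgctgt
Cyp27a1, chr1:74713415-74713534: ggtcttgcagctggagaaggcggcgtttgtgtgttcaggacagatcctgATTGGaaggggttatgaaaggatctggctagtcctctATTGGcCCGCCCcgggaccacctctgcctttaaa

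The Hmgcs1 window holds the sterol element 137 bases before the start, and no other member with a promoter in the table holds those letters. RefSeq promoters, of 250 bases before to 50 after the start, were matched by symbol for 24 of the 31 genes. On either strand TCACNCCAC was found in 1.24% of all 32851 promoters. CCAAT was found for 14 of the 15 synthesis genes with a promoter and for 4 of 5 in the uptake, transport and efflux group, against 37.4% of all promoters and 42.5% of the tested genes with a promoter. Among the synthesis genes with it are Hmgcs1 and Nsdhl, and also Mvk, Idi1, Dhcr7 and Hsd17b7, whose log2 differences were below 0. GGGCGG was found for 14 of the 15 synthesis genes and for 5 of 5 in the uptake, transport and efflux group, against 35.7% of all promoters but 69.4% of the tested genes with one. A match of letters is a description and not a bound site, and a missing match says only that these letters are not in the window.

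Hmgcs1 gave signals of 10639 and 10560 in FSP27-deficient WAT against 3752 and 3269 in wild-type WAT. In this and the following pairs of signals the FSP27-deficient arrays come first and replicate 1 precedes replicate 2. The duplicates lay close together, and both FSP27-deficient arrays stood well above both wild-type arrays. The mean signal was 3.02-fold higher, a log2 difference of 1.59 (standard error, SE, 0.16, limma adjusted p = 1.0e-04). The other probe sets of the gene, all fainter, had log2 differences of 1.10, 0.85 and 1.19, and each was called when every probe set was fitted on its own (limma adjusted p = 0.0043, 0.012 and 0.0019). Hmgcs1 stayed past the threshold when each of the 4 arrays was left out in turn, with log2 differences of 1.49 to 1.69.

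The next enzymes of the mevalonate branch did not share a direction. Mvk, the kinase that phosphorylates mevalonate, gave 506.7 and 465 against 504.9 and 867. Its arrays overlapped, since wild-type replicate 2 stood above the other 3 (log2 difference of -0.44, SE 0.27, limma adjusted p = 0.36), and its other probe set had -0.22. Pmvk, the kinase of the following step, gave 1396 and 1110 against 841 and 753. Both of its FSP27-deficient arrays were above both wild-type arrays, as was so for 22.7% of all genes tested. Its log2 difference of 0.64 (95% confidence interval of 0.17 to 1.10) missed the threshold, with limma adjusted p = 0.074, the lowest among the members not called. Mvd, the decarboxylase that yields isopentenyl pyrophosphate, gave 245 and 249 against 198 and 164 by the brighter probe set and 189 and 191 against 206 and 255 by the other. The probe sets went opposite ways, with log2 differences of 0.42 and -0.25.

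From isopentenyl pyrophosphate to squalene no gene was called. Idi1, the isomerase, gave 507 and 549.9 against 572 and 539, so that the ranges of the genotypes overlapped. Fdps, which makes farnesyl pyrophosphate, the branch point towards ubiquinone, dolichol and prenylated proteins, gave 1148 and 1222 against 849 and 978. The FSP27-deficient arrays were the higher pair, with a log2 difference of 0.37 and a confidence interval of -0.07 to 0.81. Fdft1, the squalene synthase that commits the pathway to sterols, gave 779.6 and 1235 against 952 and 1398. There the spread within each genotype was wider than the difference between them (log2 difference of -0.23, SE 0.26).

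Around squalene the members stood on opposite sides. Sqle, the squalene epoxidase, gave 309.5 and 246 against 418 and 348. Both FSP27-deficient arrays were below both wild-type arrays, as for 31.4% of all genes tested, and the log2 difference was -0.45 (SE 0.27, limma adjusted p = 0.35). Lss, the cyclase that forms lanosterol, gave 839 and 514 against 387 and 374. Its log2 difference was 0.76 (confidence interval of 0.18 to 1.34, limma adjusted p = 0.088), but without FSP27-deficient replicate 1 it was 0.42 (adjusted p = 0.39) and without replicate 2 of that genotype 1.11 (adjusted p = 0.014). Its probe sets also disagreed, and their average had 0.10. The brightest has the suffix that Affymetrix gives to probes shared by several transcripts, and the others gave 138 and 112 against 218 and 194, a log2 difference of -0.66, and 154 and 166 against 140.1 and 138, a log2 difference of 0.18.

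Between lanosterol and cholesterol Nsdhl was the only enzyme called, at 2370 and 2441 against 1183 and 1277. The duplicates again lay close together and far from those of the other genotype. The mean was 1.96-fold higher, a log2 difference of 0.96 (SE 0.18, limma adjusted p = 0.0052). Leaving out wild-type replicate 1 gave a log2 difference of 0.90 with adjusted p = 0.064. Nsdhl works in a complex with Msmo1, the methylsterol oxidase, and Hsd17b7, the ketoreductase. Msmo1 gave 531 and 687 against 283 and 493, with both FSP27-deficient arrays higher but wild-type replicate 2 close beneath them (log2 difference of 0.67, confidence interval of 0.04 to 1.29, limma adjusted p = 0.17). Hsd17b7 gave 26.6 and 132 against 220.1 and 94.3. Its duplicates differed 4.97-fold in FSP27-deficient and 2.33-fold in wild-type WAT, the widest among the members in either genotype, so that its log2 difference of -1.02 had a confidence interval of -2.72 to 0.68. Whether the 3 genes of the complex differed from each other in their change was not tested.

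None of the other enzymes of this stretch was called. Cyp51, which removes the first methyl group of lanosterol, gave 501 and 607 against 385 and 417, a log2 difference of 0.45, and its second probe set gave 215 and 236 against 88.5 and 118, a log2 difference of 1.03. Neither was called with the probe sets fitted on their own (limma adjusted p = 0.30 and 0.17), although on both the FSP27-deficient arrays were higher. Tm7sf2, the reductase that follows, gave 500.1 and 247 against 213 and 294, and its log2 difference of 0.47 rested on FSP27-deficient replicate 1, with -0.02 when that array was left out. Ebp, the sterol isomerase, and Dhcr7, the reductase of the last step, overlapped between genotypes, with log2 differences of 0.08 and -0.02. Sc5d, the desaturase before it, gave 3715 and 3855 against 3083 and 3021 by the brighter probe set, a log2 difference of 0.31, whereas its faint probe set gave 248 and 125 against 309.8 and 250.3, a log2 difference of -0.61. The narrow spread of the bright probe set set its arrays apart, but the call was missed (limma adjusted p = 0.28).

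**Figure D1:**
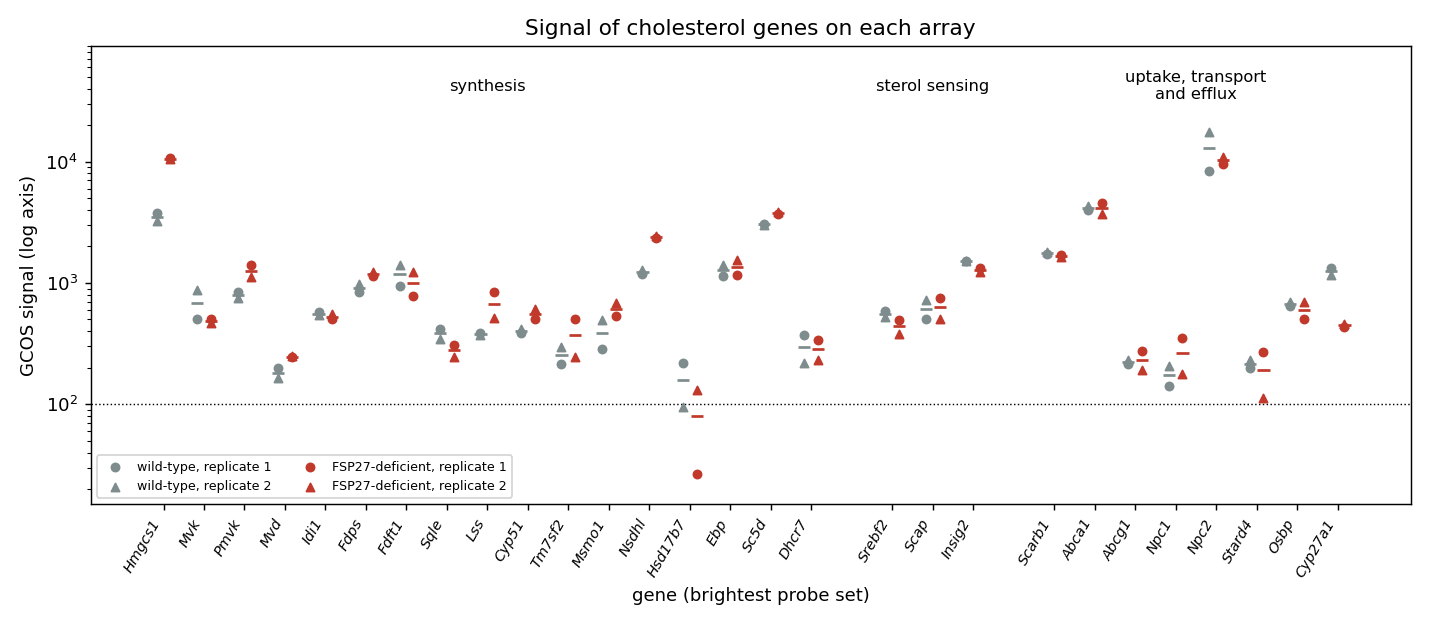
Signals (log axis) of the 28 named genes, with a circle for replicate 1 and a triangle for replicate 2 of each genotype (grey, wild-type, and red, FSP27-deficient WAT), a short bar for the mean of each pair, and a dotted line at 100, the lowest mean signal tested. The red symbols of Hmgcs1 and Nsdhl lie above the grey ones and those of Cyp27a1 below, while the duplicates are spread widely for Hsd17b7 in both genotypes, for Tm7sf2, Npc1 and Stard4 in FSP27-deficient WAT and for Npc2 in wild-type WAT.

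As a group, 11 of the 17 synthesis genes tested had a log2 difference above 0, beside 3676 of all 8523 genes tested. The arrays of the genotypes did not overlap in 14 of all 28 members, beside 54.1% of all genes tested. Among the synthesis genes, in 9 both FSP27-deficient arrays were above both wild-type arrays, in 1 (Sqle) they were below, and in 7 the arrays overlapped. Of all genes tested, 22.7% were above in this way and 31.4% below. The median was 0.53 for the 4 mevalonate genes, -0.07 for the 3 genes from isopentenyl pyrophosphate to squalene, and 0.38 for the 8 genes after lanosterol. For the 4 ways of setting 1 FSP27-deficient array against 1 wild-type array, which share arrays, the median of all synthesis genes was 0.26 to 0.37. It was 0.09 when a gene's probe sets were averaged in place of taking the brightest. A fainter probe set lay below 0 for each of Mvd, Lss and Sc5d, while another fainter probe set of Lss had 0.18. The study itself reported many genes of cholesterol biosynthesis as up-regulated on these same arrays. It used gene set enrichment analysis and a fold-change criterion, and not the test used here. The direction of this group is therefore not independent evidence.

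The genes that sense sterols were not called. Srebf2, which encodes the SREBP that chiefly drives cholesterol synthesis, gave 496 and 382 against 590 and 521. Both FSP27-deficient arrays were lower, with a log2 difference of -0.34 (confidence interval of -0.86 to 0.19, limma adjusted p = 0.44), and its faint probe set gave 91.7 and 112 against 231 and 222, a log2 difference of -1.04 (adjusted p = 0.16). Scap, the escort, gave 758 and 506.5 against 506 and 719, so that the high arrays belonged to different replicate numbers in the 2 genotypes. Insig2, 1 of the anchors that hold SCAP back, gave 1322 and 1243 against 1515 and 1528, a log2 difference of -0.24 (confidence interval of -0.66 to 0.17). Its fainter probe sets had log2 differences of -0.11 and -0.07 with overlapping arrays. For the brightest probe sets of the 3 genes the confidence intervals, which cover the spread between arrays only, lay between -0.86 and 0.62.

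**Figure D2:**
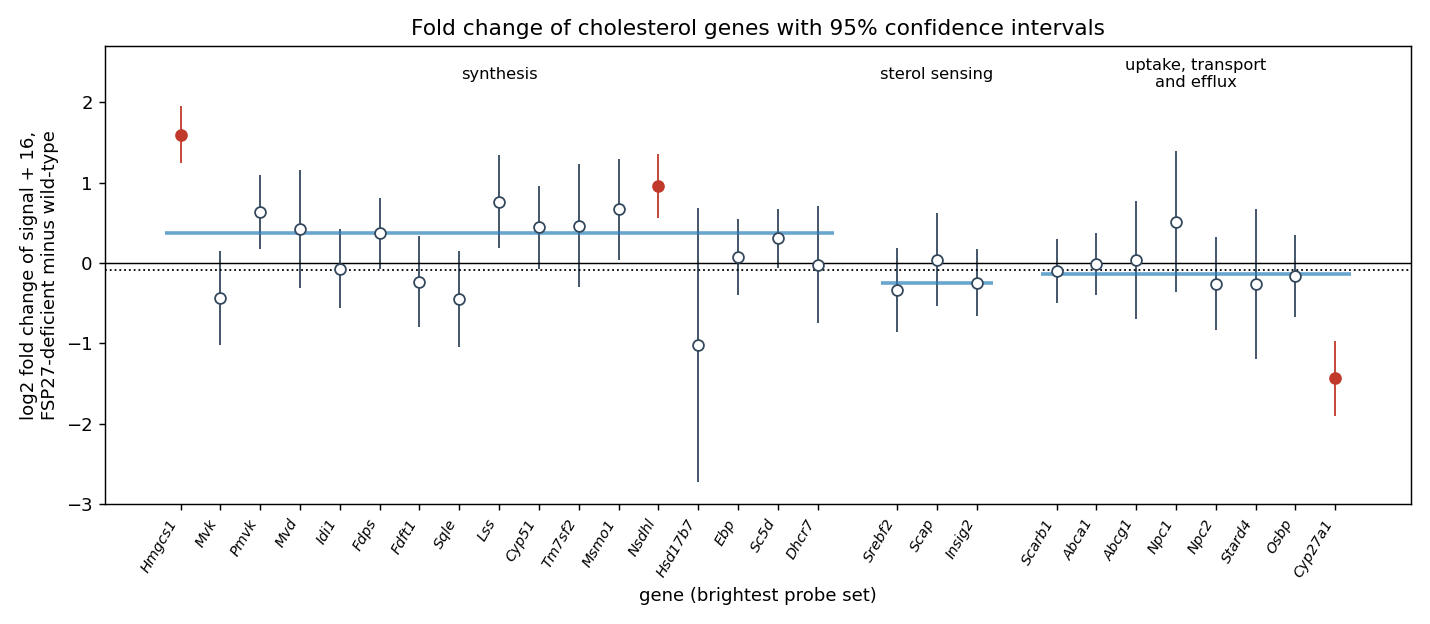
Log2 difference (signal plus 16, FSP27-deficient less wild-type) for the 28 named genes, with 95% confidence intervals from limma (filled red, adjusted p under 0.05, and open, not called). Blue lines are the medians of each group, 0.37 for synthesis, -0.24 for sterol sensing and -0.13 for uptake, transport and efflux, and a dotted line marks -0.08, the all-gene median.

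Cyp27a1, at 436 and 463 against 1331 and 1158, was the member that fell. Its mean was 2.77-fold lower, a log2 difference of -1.43 (SE 0.21, limma adjusted p = 0.0012), and leaving out each of the 4 arrays in turn gave -1.34 to -1.53, past the threshold each time. Cyp27a1 is also known from macrophages, and the macrophage markers were lower on the same arrays. Of 9 such markers 8 were tested, 5 were called lower and none higher, with a median log2 difference of -1.10. The lower calls were 3 when wild-type replicate 2 was left out. Summed over the 9, the signal was 5651 and 6609 against 15249 and 13857, and none was listed at 0. Lyz2, a lysozyme of phagocytes, had -1.77, Cd68 -1.34 and the receptor Csf1r -0.93, while Adgre1, at 354 and 521 against 727 and 495, was not called. In pooled tissue, fewer cells of a type and less RNA per cell cannot be told apart, and the part of the macrophages in the level of Cyp27a1 was not tested.

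The genes of lipoprotein exchange at the cell surface were not called, with log2 differences of -0.10 to 0.04. Scarb1, the receptor that takes up cholesteryl esters from HDL, gave 1693 and 1636 against 1749 and 1810.0, a log2 difference of -0.10 (confidence interval of -0.49 to 0.30), and its other probe sets had -0.31 and -0.36. Abca1, the exporter of cholesterol to lipid-poor apolipoproteins, gave 4591 and 3695 against 3975 and 4351. The arrays of this brightest probe set overlapped, with a log2 difference of -0.01 and a confidence interval of -0.40 to 0.37. On both fainter probe sets of Abca1 the FSP27-deficient arrays were higher, at 1288 and 1031 against 925 and 823 and at 337 and 324 against 241 and 289, and neither was called (limma adjusted p = 0.30 and 0.56). Abcg1, the exporter to HDL, gave 276 and 191 against 216 and 230.2, with a log2 difference of 0.04 and a wide interval of -0.69 to 0.77.

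Inside the cell, the lysosomal proteins Npc1 and Npc2 hand cholesterol on from degraded lipoproteins. Npc1 gave 354 and 177 against 143 and 205.5, overlapping, with a log2 difference of 0.51 and an interval of -0.37 to 1.39. Without FSP27-deficient replicate 1 the difference was 0.04, and without replicate 2 of that genotype 0.98. Npc2 gave 9534 and 10932 against 8433 and 17602, so that wild-type replicate 2 alone made the difference of -0.25, and without it the log2 difference was 0.28. On the other probe set of Npc2, whose wild-type arrays were alike, the signals were 7816 and 6708 against 9736 and 8947 (log2 difference of -0.37, limma adjusted p = 0.20). Stard4, a carrier of sterols between membranes, gave 271 and 113.5 against 198 and 232, with duplicates 2.39-fold apart in FSP27-deficient WAT. Its log2 difference was -0.26, and 0.32 without FSP27-deficient replicate 2. On the fainter probe set of Stard4 both FSP27-deficient arrays were lower, with a log2 difference of -1.43, not called (limma adjusted p = 0.26). With its probe sets averaged the log2 difference was -0.84. Osbp, which exchanges cholesterol between the endoplasmic reticulum and the Golgi, gave 508.5 and 698 against 649 and 693, a log2 difference of -0.17.

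In the uptake, transport and efflux group, 1 of 8 genes tested was called, 2 had both FSP27-deficient arrays below both wild-type arrays (Cyp27a1 and Scarb1), none had them above, and 6 overlapped, beside 31.4% below and 22.7% above among all genes tested. The synthesis median exceeded the median of this group by 0.50. Over the 4 pairs of 1 array of each genotype, which share arrays and so are not 4 observations, this difference was 0.10 to 0.59. Over the same pairs the median of the uptake, transport and efflux genes alone was -0.24 to 0.19. With probe sets averaged by gene the difference was 0.30, and without FSP27-deficient replicate 2 it was 0.28.

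**Figure D3:**
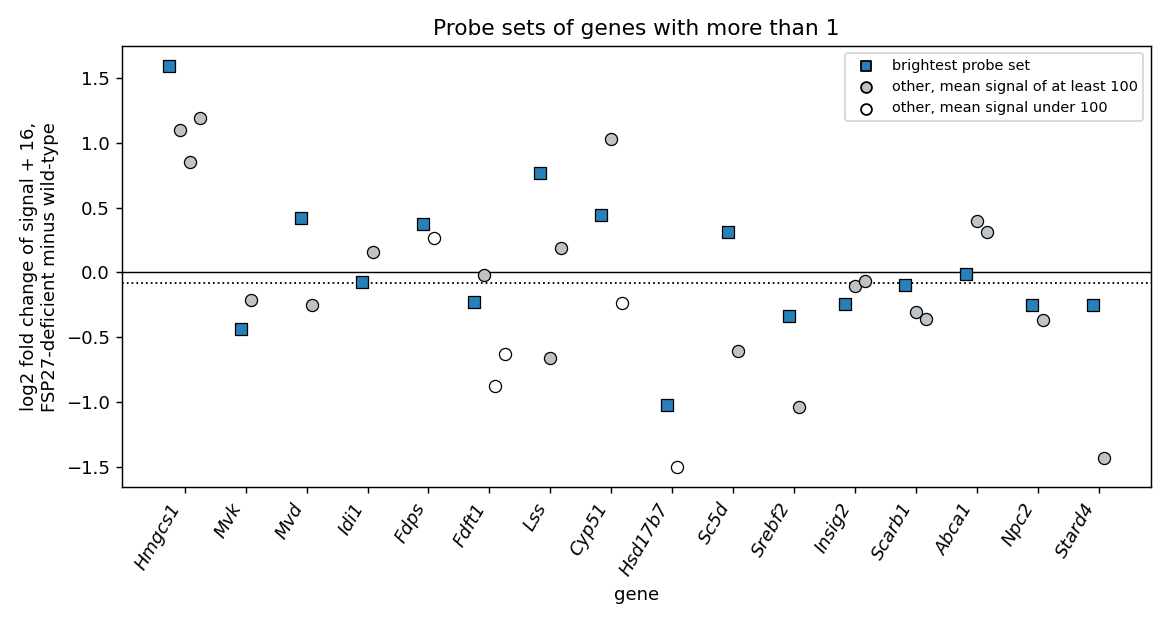
Log2 difference (signal plus 16, FSP27-deficient less wild-type) for each probe set of the 16 genes with more than 1 (blue square, the brightest probe set, grey circle, another with a mean signal of at least 100, and white circle, another under 100). A dotted line marks -0.08, the all-gene median. All points of Hmgcs1 lie between 0.85 and 1.59, while the points of Mvd, Idi1, Lss, Cyp51, Sc5d and Abca1 lie on both sides of 0.

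The 28 named genes had 53 probe sets, of which 48 had a mean signal of at least 100. Of the 16 genes with more than 1 probe set, all probe sets had the same sign in 10. With every probe set fitted on its own, 5 were called higher, those of Hmgcs1 and Nsdhl, and 1 lower, that of Cyp27a1.

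Other genes of sterol metabolism were taken from a list of 38, of which 26 are named here and 24 were tested. Of these, 4 were called higher and 1 lower (20.8%, beside 12.3% of all genes tested). Vldlr, a receptor for triglyceride-rich lipoproteins, gave 2750 and 2388 against 1592 and 1152, with both FSP27-deficient arrays higher (log2 difference of 0.91, SE 0.21, limma adjusted p = 0.013). Nr1h3, which encodes the oxysterol-activated liver X receptor alpha, gave 1537 and 1786 against 892 and 953, a log2 difference of 0.83 (limma adjusted p = 0.016). Its known targets among the members, Abca1 by its brightest probe set and Abcg1, had log2 differences of -0.01 and 0.04, as given above. The fainter probe sets of Abca1 had 0.40 and 0.31, neither called. Mylip, a ligase that removes lipoprotein receptors, gave 778 and 741 against 627 and 908, overlapping. Cyb5b, the cytochrome b5 of the outer mitochondrial membrane, gave 9872 and 10052 against 5752 and 5792 (log2 difference of 0.79, limma adjusted p = 0.0061). It was listed among the electron donors of sterol enzymes. Cyb5a and Cyb5r3 of that list had log2 differences of 0.01 and -0.53, neither called (limma adjusted p = 0.99 and 0.063). Scp2, a sterol carrier whose gene also encodes a peroxisomal thiolase, gave 21310 and 27758 against 13005 and 16862 (log2 difference of 0.72, limma adjusted p = 0.022).

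Lrp1, a large endocytic receptor of many ligands, fell, with 1570 and 1794 against 2948 and 2926 (log2 difference of -0.80, SE 0.18, limma adjusted p = 0.012). Each of these 5 calls was lost when 1 of the wild-type arrays was left out. Without wild-type replicate 1 the adjusted p was 0.071 for Cyb5b, 0.14 for Nr1h3, 0.28 for Scp2 and 0.11 for Lrp1, and without wild-type replicate 2 it was 0.060 for Cyb5b, 0.086 for Nr1h3, 0.17 for Vldlr and 0.097 for Lrp1. Scp2 also had adjusted p = 0.058 without FSP27-deficient replicate 2 and 0.15 when faint genes were kept, and Lrp1 0.059 after centring each array on its median. With probe sets averaged by gene it was 0.078 for Scp2 and 0.073 for Vldlr. Srebf1, the other SREBP gene, gave 3750.1 and 4100.0 against 3623 and 2676 and was not called (log2 difference of 0.33, limma adjusted p = 0.31). Erlin1, which takes part in the sterol-driven degradation of the pathway's proteins, gave 398 and 320.1 against 602 and 576 (-0.70, adjusted p = 0.084), and Lipa, the lysosomal lipase of cholesteryl esters, gave 506 and 427 against 733 and 667 (-0.57, adjusted p = 0.13). The 4 tested genes of the mevalonate side branches had log2 differences of -0.09 to 0.38, none called.

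**Figure D4:**
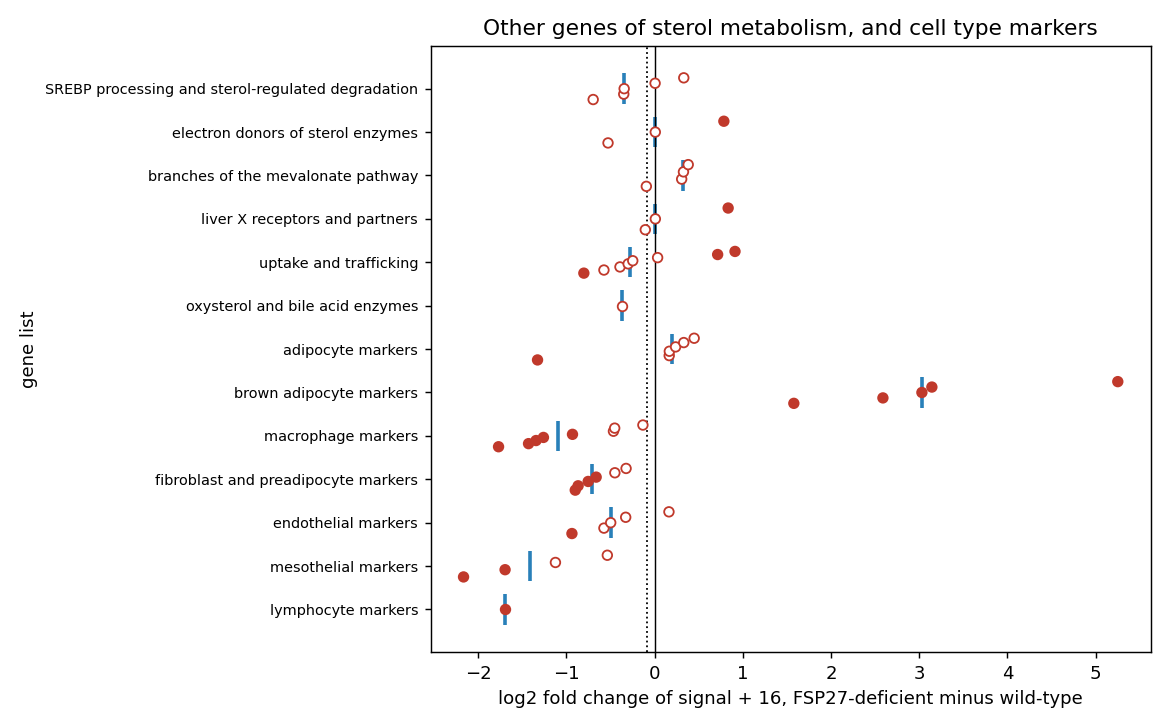
Log2 difference (signal plus 16, FSP27-deficient less wild-type) for genes tested of 6 lists of sterol metabolism and 7 lists of cell type markers (filled, adjusted p under 0.05, and open, not called), blue bars for list medians and a dotted line at -0.08, the all-gene median. The brown adipocyte markers lie at 1.58 and above and the macrophage, fibroblast and mesothelial markers below 0.

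Markers of several cell types moved on the same arrays as the genes above. The tissue carried the markers of fat, with Adipoq at 50496 and 54068 against 44423 and 48824. Of 8 adipocyte markers 6 were tested and 1, Lep, was called, lower at 5051 and 3544 against 10972 and 10320. Their summed signal was 218978 and 231232 against 175053 and 211069. Of 6 brown adipocyte markers 5 were tested and all 5 were called higher, with a summed signal of 20119 and 24574 against 1279 and 978. The study had listed Cox8b, Elovl3, Cidea and Cox7a1 among its most up-regulated genes on these same arrays, and reported Dio2 as high. The count of brown adipocyte calls is therefore not independent evidence. Most of the FSP27-deficient sum was Cox8b, at 13491 and 19539. The wild-type signals of Dio2, 88.4 and 78.5, were under 100, so it passed the filter through its FSP27-deficient arrays. Ucp1, at 157 and 31.3 against 18.9 and 12.9, was under the filter. When limma lacked the trend, 1 of the 5 was called. With 1 array left out, their median log2 difference was 2.45 to 3.14. Lower calls were 4 of 6 among fibroblast and preadipocyte markers (summed signal of 22393 and 26230 against 41987 and 41309), 2 of 4 tested among mesothelial markers (1410 and 1006 against 3149 and 3597) and 1 of 5 among endothelial markers (3577 and 3911 against 4421 and 5406). The fibroblast calls were 1 without wild-type replicate 1 and 2 without wild-type replicate 2, and the mesothelial calls 1 without either of these arrays. The fibroblast calls were also 2 after median centring or with probe sets averaged by gene. The endothelial call, Pecam1, was lost without FSP27-deficient replicate 1 or either wild-type array. Of the 4 lymphocyte markers 3 are named, and they went different ways. Ptprc, which all leukocytes carry, was called lower at 152 and 116 against 467 and 468. Cd3e, of T cells, gave 201 and 140.4 against 21.9 and 31.0 and was under the filter, as was Cd79a, of B cells, whose arrays overlapped. The call of Ptprc was lost without either wild-type array. No marker in these lists was listed at 0. The part of such shifts in the levels of Hmgcs1, Nsdhl, Nr1h3, Vldlr and Lrp1 was not tested.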

How the data were processed

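Total RNA of gonadal WAT from 5 mice per genotype was pooled (45 μg) and hybridised in duplicate to Affymetrix mouse arrays. The deposited values are the authors' GCOS signals, an intensity on a linear scale for 22690 probe sets, for which the sources used here name neither a GCOS version nor a scaling target. Probe sets with 1 symbol in the platform annotation (20393) were used, and 691 with several and 1606 unnamed were not. All 28 members found kept their symbol in RefSeq. Signals were taken to log2 after adding 16, and genotypes were compared in R 4.3.3 with limma 3.58.1 (lmFit, eBayes with a trend on the signal), without a replicate block. Residual degrees of freedom were 2, and 12.1 with the prior. With 2 arrays against 2, exact permutation (two-sided) reaches at best p = 0.333. The steps were run on data simulated from limma's own fitted spread, which checks the code only and not the spread between mice. The members and lists were chosen with earlier results of these data known. By rule, every member was named, of the other pathway genes those past the threshold, and of markers the defining ones. Srebf1, Mylip, Cyb5a, Cyb5r3, Erlin1, Lipa and the markers singled out were chosen after their values were seen. Results were recomputed with 1 or 64 added to the signal, with the filter dropped or raised to 200, after quantile normalization or median centring of the arrays, with probe sets averaged by gene, with limma lacking the trend, with the methods' t-test, with replicate number as a block, and leaving out each array in turn. For the other pathway genes these alternatives were chosen after seeing the data. Promoter motifs were searched as plain letters on both strands.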

Additional observations from a re-analysis of the deposited data

How the results depend on the processing

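Hmgcs1 and Cyp27a1 were called under 12 of 14 alternatives and Nsdhl under 11, and none of the 3 changed direction. Without the trend of spread on signal, limma called 0 of the members and 0 of the other pathway genes, of 5 and 7 with an unadjusted p under 0.05, and 1 of all genes (1861 with an unadjusted p under 0.05). The methods' t-test after Benjamini-Hochberg adjustment called 0, 0 and 0, of 5, 6 and 1309 with an unadjusted p under 0.05. With 1 array left out (the remaining array of that genotype is taken to have the spread of the other pair), the members called were 2 to 5, the other pathway genes 1 to 7 and all genes 408 to 1377. The lowest counts came without wild-type replicate 1, and without wild-type replicate 2 they were 3, 1 and 470. Without FSP27-deficient replicate 2 Lss and Pmvk were called as well. With 1 array left out the median of synthesis genes was 0.28 to 0.34, that of uptake, transport and efflux genes -0.17 to 0.04, and their difference 0.28 to 0.50. The synthesis median was 0.45 after quantile normalization, 0.44 after centring and 0.086 over the mean of probe sets, which called 3 of the other pathway genes. With the replicate number as a block 5 members were called, Lss and Pmvk in addition. Same-numbered arrays deviated together weakly (correlation of 0.065 across genes), so the numbers were not taken as a pairing. The cause of these differences between settings was not tested. Of the 25 members not called, 12 changed sign under some alternative and 2 were called under some. Hsd17b7 ranged from 26.6, under the lower quartiles of the arrays (52.7 to 64.1), to 220.1. Its duplicates, 4.97-fold apart in FSP27-deficient and 2.33-fold in wild-type WAT, limit what it can show.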
